A study of Drosophila simulans and Drosophila melanogaster and Drosophila sechellia with 48 samples.

Results

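Cuticle protein genes are described here in 7 species of the Drosophila melanogaster subgroup and in 10 crosses within D. simulans. A gene was counted among them when its symbol in the array annotation belonged to the Cpr, Lcp, Ccp84, Twdl or Edg (Edg78, Edg84) series or was Pcp or Acp65A, and when a probe set named that gene alone. This gave 97 probe sets for 91 genes, of 10844 named genes on the array. For a gene with several probe sets, the brightest over all arrays stood for it. The 91 genes comprised 58 Cpr genes, 20 Twdl genes, 5 Lcp genes, 4 Ccp84 genes, 2 Edg genes, Pcp and Acp65Aa. RNA came from whole untreated males taken 3 days postpupation, 20 males per sample, reared at 25 °C on cornmeal medium with yeast under continuous light. The 48 arrays formed 16 groups of 3, namely the 10 D. simulans crosses, its island relatives D. mauritiana and D. sechellia, D. melanogaster, and the species of the yakuba complex (D. santomea, D. teissieri and D. yakuba). D. melanogaster samples were an even mixture of 10 isogenic lines and the D. simulans crosses linked 10 isogenic lines of the same Californian population in a round robin, while each of the other 5 species was represented by 1 line, so that species and line cannot be told apart for these. The D. melanogaster and D. simulans arrays belonged to an earlier collection than the arrays of the other 5 species. In any comparison of these 2 species with the other 5, species and collection cannot be told apart.

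The cuticle of an insect is a layered extracellular matrix of chitin fibres and proteins that epidermal cells secrete before each moult and, in the adult, for some time after eclosion. Most cuticle proteins of the Cpr series carry the Rebers and Riddiford domain, which binds chitin, and Lcp, Pcp, Ccp84, Edg and Acp65Aa proteins belong to the same domain family. Their names record where they were first met in D. melanogaster, namely larval cuticle (Lcp), pupal cuticle (Pcp), a cuticle gene cluster near Antennapedia (Ccp84), ecdysone-dependent genes (Edg) and adult cuticle (Acp65A). The Tweedle (Twdl) proteins form a separate insect family, known from the mutants of TwdlD that change body shape. In a young adult fly the epidermis still adds to the cuticle under the tanned outer layers. The symbols of most of these genes also hold their cytological section, so that Cpr47Ea to Cpr47Eg lie in section 47E.

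Signals were compared on the log2 scale after quantile normalization. The probes were designed on D. melanogaster. In any comparison between species, a difference in transcript level cannot be told apart from a difference in the match of probe and transcript. The paper reports that keeping probes mismatched to D. yakuba tended to bias its expression estimates upward. In whole flies, fewer cells that make a transcript and less of it per cell cannot be told apart either. Arrays of 1 group correlated between 0.896 and 0.926 in D. sechellia, between 0.899 and 0.912 in D. mauritiana, between 0.659 and 0.859 in D. yakuba and between 0.701 and 0.838 in D. santomea. The spread within groups was wider for cuticle genes than for all features in each of the 16 groups, with a median SD of 0.41 to 0.96 against 0.33 to 0.84. All groups carried testis transcripts, with the median of 7 testis genes between 10.85 and 14.53 in every array. D. sechellia array 1 and array 3 of the cross 37x43 stood apart through transcripts of females, with summed signals of 15 yolk and eggshell genes of 188587 and 172439. In the other arrays of D. sechellia the sum was 2773 and 3277. Counts of cuticle genes at the threshold were recomputed without them, as were the tests of genes named by the rule under processing. The lists of other genes, the correlations, the ranges and the difference of Pcp from D. simulans were not.

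The cuticle genes passed the test of variation among the crosses of D. simulans about as often as other features did. Among species a somewhat larger share of them passed. At an adjusted p of 0.05 or less in limma's moderated F-test, 68 of the 91 genes differed among the 7 species (74.7%, against 66.0% of all 12367 features). The 7 species span both collections, which cannot be told apart from species there. Among the 5 species of the later collection alone the count was 25 of 91, against 18.6% of all features. In the same test over the 10 crosses, 1 of the 91 genes passed, against 1.63% of all features. Without adjustment 13 genes had a p of 0.05 or less among the crosses, which is 14.3% against 14.6% of all features. The median range between the highest and the lowest species mean was 2.34 for the cuticle genes and 2.03 for all features, and the median range between cross means was 1.48 and 1.29. A total of 8 of the 91 genes stayed below a signal of 100 in every group (8.79%, against 8.35% of all features), among them Lcp65Ac, Lcp65Ad and Lcp65Af, which are larval cuticle genes in D. melanogaster.

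D. melanogaster had the lowest mean of the 7 species in 40 of the 91 genes, and D. sechellia had it in 30. Of all features 23.7% and 13.4% were lowest in these species. The highest mean lay in D. santomea for 26 genes, in D. mauritiana for 21, in D. teissieri for 21 and in D. yakuba for 15, where 17.1%, 11.5%, 15.8% and 15.8% of all features were highest. The median deviation of the 91 genes from their overall means was between -0.93 and -0.48 in the 3 D. melanogaster arrays and between 0.34 and 1.05 in the 9 arrays of the yakuba complex. These ranges do not overlap. The D. mauritiana arrays lay between 0.25 and 0.71, which overlaps the range of the yakuba complex. The D. sechellia arrays lay between -0.4813 and 0.03, and the lowest was just above the highest D. melanogaster array at -0.4817. The D. simulans arrays lay between -0.33 and 0.23. Most arrays were of D. simulans, so that the overall means lean toward this species and its deviations toward small values. The same deviation was not taken for all features.

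**Figure D1:**
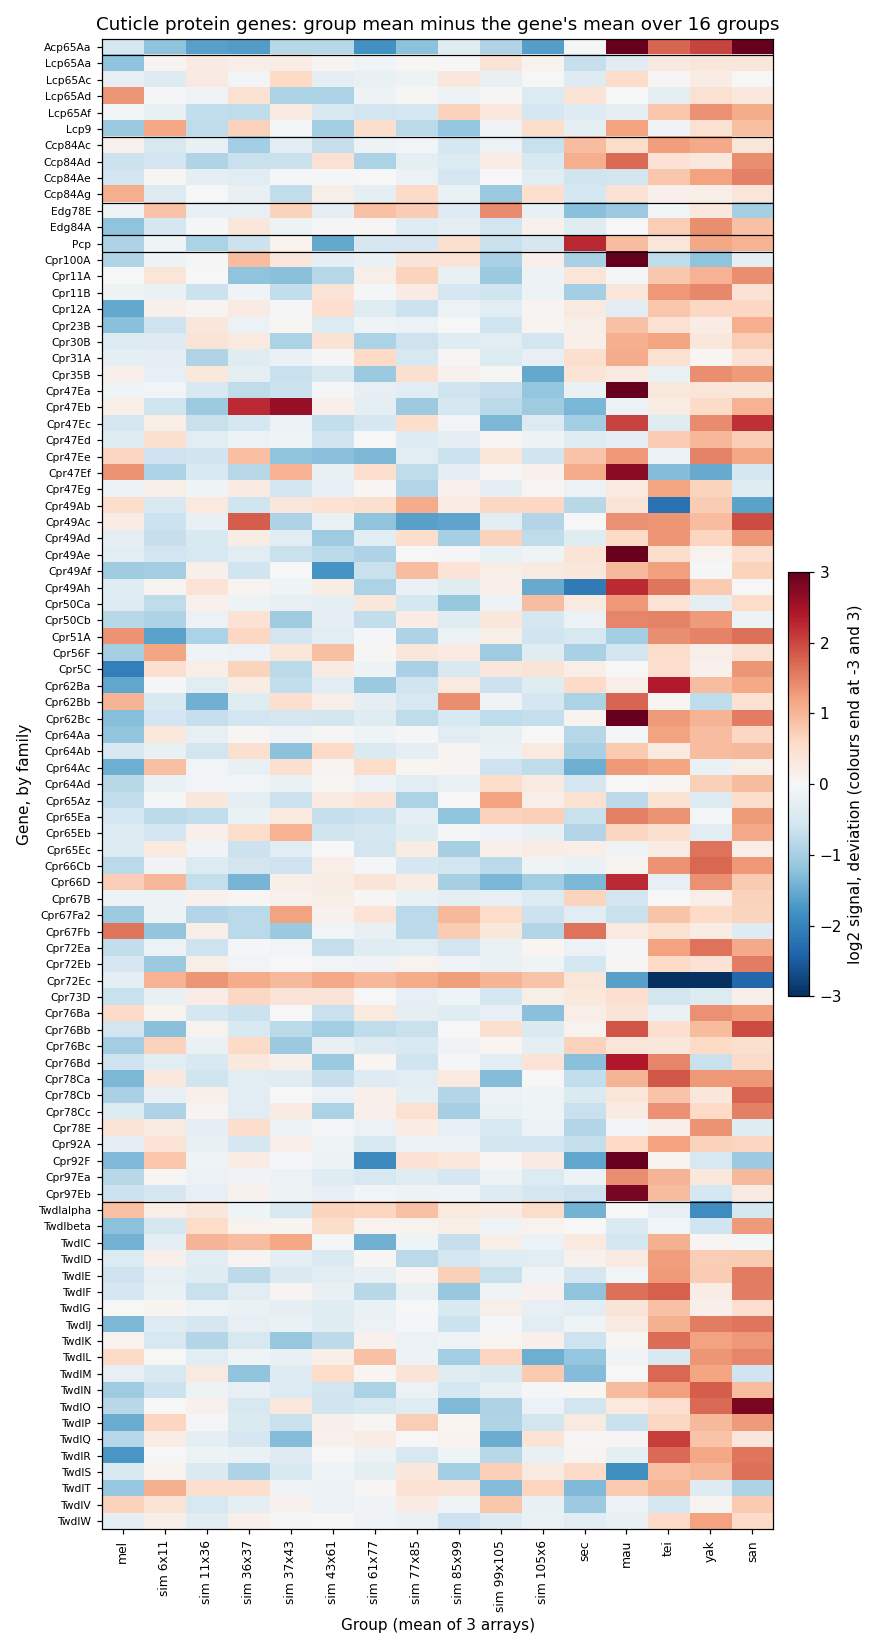
Each row is 1 of the 91 cuticle protein genes, grouped by family, and each column 1 of the 16 groups of 3 arrays; the colour is the group's mean log2 signal minus the gene's mean over the 16 groups, with colours ending at -3 and 3. D. mauritiana stands out in a subset of Cpr genes and Acp65Aa, the columns of the yakuba complex (tei, yak, san) are higher in most rows, and Cpr72Ec runs the other way.

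D. mauritiana had high signals of a group of cuticle genes that its closest relatives did not share. In 8 genes, namely Acp65Aa, Cpr47Ea, Cpr47Ef, Cpr49Ae, Cpr62Bc, Cpr92F, Cpr97Eb and Cpr100A, all 3 D. mauritiana arrays lay above all 45 other arrays. This share of 8.79% compares with 1.12% of all features. The same count was 1 gene for D. simulans (Cpr72Ec, against 0.0404% of features) and 1 gene for D. santomea (Cpr72Eb, against 0.582%). It was 0 for D. melanogaster, D. sechellia, D. teissieri and D. yakuba, where 3.78%, 1.06%, 0.687% and 0.275% of all features stood apart in this way.

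Acp65Aa, the adult cuticle gene, had log2 signals of 11.57, 11.33 and 11.61 in the D. mauritiana arrays and of 5.66, 5.44 and 8.46 in the D. sechellia arrays. The 30 D. simulans arrays ran from 4.16 to 7.27 with a median of 5.32, and D. melanogaster gave 5.68, 5.84 and 6.63. The 3 species of the yakuba complex were spread out between these, with 9.52, 8.94 and 6.50 in D. teissieri, 10.37, 6.92 and 8.47 in D. yakuba and 11.30, 9.93 and 10.56 in D. santomea. The highest D. santomea array was thus just under the lowest D. mauritiana array, and the arrays of D. teissieri and D. yakuba overlapped each other and the D. sechellia range. Acp65Aa was 31.7-fold higher in D. mauritiana than in D. sechellia (log2 difference -4.99 for D. sechellia minus D. mauritiana, SE 0.81, limma adjusted p = 6.92e-05).

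Cpr92F had the largest difference between these 2 species among the genes past the threshold, with 13.72, 12.51 and 13.31 in D. mauritiana and 5.99, 4.26 and 11.15 in D. sechellia. The difference for D. sechellia minus D. mauritiana was -6.05 (SE 1.12, limma adjusted p = 0.000391). With only these 6 arrays in the fit the adjusted p was 0.0902. Cpr100A gave 12.65, 12.36 and 13.06 in D. mauritiana against 7.05, 7.23 and 10.12 in D. sechellia, a difference of -4.55 (SE 0.70, limma adjusted p = 2.36e-05). For both genes the third D. sechellia array was well above the other two and still below all D. mauritiana arrays. Cpr47Ea was separated with less spread between arrays, at 9.97, 9.06 and 9.91 in D. mauritiana and 4.16, 5.35 and 5.85 in D. sechellia. Its difference was -4.53 (SE 0.44, limma adjusted p = 2.43e-09), and no array of another species exceeded 6.51.

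**Figure D2:**
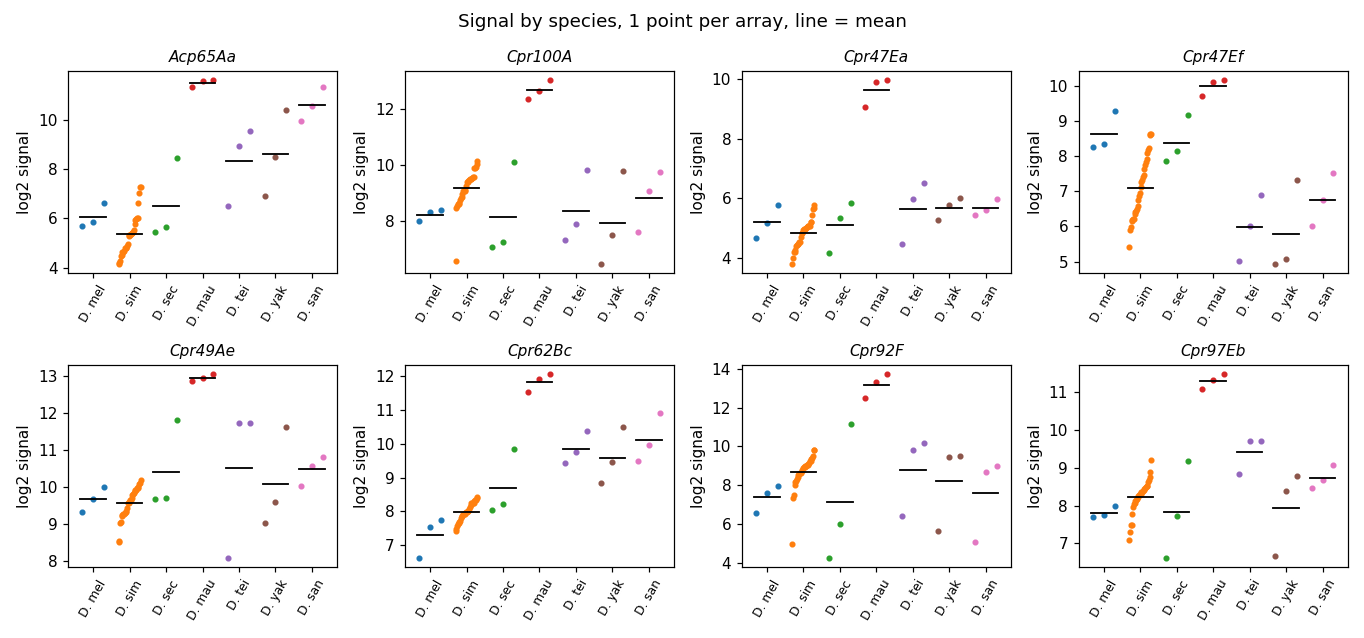
Log2 signals of the 8 genes whose D. mauritiana arrays all lay above the other 45 arrays, 1 point per array (30 for D. simulans, 3 for each other species) sorted within a species, with a line at the mean. The third D. sechellia array is the highest of its species in all 8 panels, and for Acp65Aa the highest D. santomea array (11.30) lies close to the D. mauritiana arrays.

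Over all cuticle genes, 15 were lower and 2 higher in D. sechellia than in D. mauritiana at a limma adjusted p of 0.05 or less, against 2.94% and 2.32% of all features. The median difference was -0.71 for the cuticle genes and 0.02 for all features. Besides the 4 genes above, the lower genes were Cpr49Ae, Cpr49Ah, Cpr62Bb, Cpr62Bc, Cpr64Ac, Cpr66D, Cpr76Bd, Cpr97Ea, Cpr97Eb, TwdlF and TwdlT, with differences between -4.37 (Cpr49Ah) and -1.54 (Cpr97Ea). Cpr66D is represented by 2 probe sets, and both were highest in D. mauritiana (group means of 9.50 and 10.27, against 5.91 and 4.94 in D. sechellia). The call of TwdlT rests on the brighter of its 2 probe sets (6.71 in D. sechellia and 8.82 in D. mauritiana). The dimmer one gave 6.22 and 6.70, and their group means had a correlation of 0.12. The genes that were higher in D. sechellia were Cpr72Ec (difference 1.99, SE 0.43, adjusted p = 0.00239) and Cpr67B (1.25, SE 0.26, adjusted p = 0.0021). Cpr67B gave 10.57, 11.09 and 10.14 in D. sechellia and 9.12, 9.49 and 9.45 in D. mauritiana, which were below the arrays of the yakuba complex as well. Its adjusted p was 0.076 when only these 6 arrays entered the fit. A limit of this comparison is that D. sechellia array 1 carried transcripts of females and array 3 lay nearer to D. mauritiana. Without both of them 9 genes were lower and 1 higher, with the remaining D. sechellia array taken to vary like the other groups, and the adjusted p of Cpr72Ec was 0.0856.

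To see which of the species differed from the rest, D. mauritiana was also set against D. simulans and against the mean of the other 4 species of the later collection. These comparisons were added after the data had been seen, and they share the D. mauritiana arrays with the one above. D. simulans belonged to the earlier collection, so that species and collection cannot be told apart in comparisons with it. Against D. simulans 23 cuticle genes were higher in D. mauritiana and 1 was lower (5.07% and 6.10% of all features). Acp65Aa differed by 6.15 (SE 0.60), Cpr47Ea by 4.82 (SE 0.33), Cpr92F by 4.50 (SE 0.83) and Cpr100A by 3.52 (SE 0.52). The gene that was lower was Cpr72Ec. Of other tissues, 6 of 7 testis genes were lower in D. mauritiana than in D. simulans (median -1.76, summed signal 23957 to 29173 against 56908 to 164154), and 3 of 4 muscle genes (median 1.80), 2 of 3 storage genes, 1 of 5 gut genes and 1 of 7 accessory gland genes were higher. Their part in the cuticle differences was not tested. The count of genes that differed was 14 without D. mauritiana array 3 and 15 without array 1, and these 5 genes had limma adjusted p-values of 0.000215 or less with all arrays. Against the mean of D. sechellia, D. teissieri, D. yakuba and D. santomea, 13 genes were higher and 7 lower (11.5% and 7.84% of all features). Acp65Aa differed by 3.00 (SE 0.64) there, Cpr47Ea by 4.11 (SE 0.35), Cpr92F by 5.25 (SE 0.88) and Cpr100A by 4.39 (SE 0.55), and the count was 12 without D. mauritiana array 1. In that comparison 3 of 4 muscle, 3 of 3 storage, 3 of 5 gut, 5 of 7 accessory gland and 1 of 7 testis genes were higher, and 4 testis genes and 1 yolk or eggshell gene were lower. D. sechellia, by contrast, had 4 genes higher and 5 lower than D. simulans, against 5.30% and 5.95% of all features. The highest of these differences was that of Pcp, the pupal cuticle gene (7.97, 8.29 and 7.89 in D. sechellia, 3.53 to 6.86 with a median of 5.29 in D. simulans), at 2.75 (SE 0.74, limma adjusted p = 0.0111). Of other tissues 5 of 7 testis genes, 3 of 5 gut genes, 2 of 4 muscle genes and 2 of 7 accessory gland genes were lower in D. sechellia than in D. simulans, and 1 gut and 1 accessory gland gene were higher. The count of cuticle genes in that comparison was 1 without D. sechellia array 2, 2 without array 1 and 2 without both arrays that carried transcripts of females. With array weights 7 cuticle genes were higher and 20 lower in D. sechellia than in D. simulans, while 52.2% of all features called were higher.

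Among genes with other roles in cuticle formation, some of the chitin, obstructor and tanning lists were lower in D. sechellia than in D. mauritiana, as were 2.94% of all features. D. sechellia array 1, with transcripts of females, stayed in this comparison. Of 17 measured genes of chitin synthesis and organisation 3 were lower in D. sechellia and 0 higher, namely the chitin deacetylases verm (difference -2.05) and Cda4 (-2.35) and the chitinase gene Cht7 (-3.30). Of 9 genes of the obstructor family, which encode chitin binding proteins, 3 were lower, with Gasp at -4.22, obst-A at -2.63 and obst-B at -2.21. Of 16 tanning and pigment genes 4 were lower, namely yellow-d2 (-3.03), y, which is needed for black pigment (-2.68), Pu, which encodes an enzyme of pteridine synthesis (-1.94), and e, whose enzyme conjugates dopamine with beta-alanine (-1.22). None of 15 measured regulators of moulting and eclosion differed at the threshold. Of 11 other matrix proteins pio was lower (-2.05) and Muc55B higher (4.63), and the median differences of the 5 lists were -0.91, -1.19, -0.74, -0.39 and -0.12 in the order given.

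Transcripts of other tissues also differed between D. sechellia and D. mauritiana. The summed signal of 4 muscle genes was 173928 to 210498 in the D. mauritiana arrays, 54023, 56245 and 125820 in the D. sechellia arrays and 77617 to 125913 in D. simulans, and 3 of the 4 were lower in D. sechellia than in D. mauritiana. These were fln (difference -4.81), Act88F (-4.08) and TpnC41C (-1.84). The third D. sechellia array, which had the higher cuticle signals, was also the one with the higher muscle sum. In D. teissieri array 3, where Acp65Aa (6.50) and Cpr92F (6.41) were below the other D. teissieri arrays, the muscle sum was 61092 against 140308 and 143271. In D. yakuba the muscle sums were 72694, 72761 and 47058, with Acp65Aa at 10.37, 6.92 and 8.47 and Cpr92F at 9.46, 9.51 and 5.63. In D. santomea they were 97456, 60002 and 96526, with Acp65Aa at 11.30, 9.93 and 10.56 and Cpr92F at 9.01, 5.06 and 8.71. Of 3 measured larval fat body and storage genes, Fbp2 (-5.04) and Fbp1 (-2.41) were lower in D. sechellia than in D. mauritiana, and no muscle or storage gene lay at the floor in any array. The storage sum was 4362 to 6630 in D. mauritiana and 840 to 2491 in D. sechellia. It was 6884 to 9367 in D. melanogaster and 867 to 12584 in D. simulans. In the yakuba complex it was 765 to 3692 (D. teissieri), 683 to 1176 (D. yakuba) and 1125 to 4584 (D. santomea). Of 5 gut genes 3 were also lower in D. sechellia, with a summed signal of 26139 to 54527 against 68678 to 87654 in D. mauritiana. Of 7 accessory gland genes 2 were lower, and no testis, yolk or eggshell gene passed the test. The part of these tissues in the cuticle differences was not tested.

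Cpr72Ec had the smallest p of all cuticle genes among species (limma adjusted p = 7.00e-17), and it ran against most of the others. In D. simulans its signal was between 10.90 and 11.77 with a median of 11.50, above every array of the other species. D. sechellia followed with 10.76, 10.81 and 10.68, then D. melanogaster with 10.14, 10.29 and 9.89 and D. mauritiana with 8.43, 9.05 and 8.82. The yakuba complex was lowest, at 6.47, 6.85 and 6.39 in D. teissieri, 6.76, 8.45 and 6.72 in D. yakuba and 7.60, 9.77 and 6.75 in D. santomea. The first 4 species did not overlap in this order, while the 3 species of the yakuba complex overlapped each other, and 2 of their arrays reached the D. mauritiana range or passed it. The other genes of section 72E behaved differently. Cpr72Eb was highest in D. santomea (9.88, 10.65 and 9.75), where all 3 arrays lay above those of all other species. Cpr72Ea and Cpr72Ec had a correlation of -0.86 over the 16 group means, which share arrays and normalization.

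Between the 2 species complexes of the later collection, more cuticle genes were higher in the yakuba complex than in D. sechellia and D. mauritiana. At a limma adjusted p of 0.05 or less, 28 genes were higher and 7 lower in the mean of D. teissieri, D. yakuba and D. santomea than in the mean of D. sechellia and D. mauritiana. Of all features 18.4% were higher and 21.0% lower. Without both arrays that carried transcripts of females 23 cuticle genes were higher and 7 lower. In that fit 4417 features passed, and 45.7% of these were higher. The median difference was 0.55 for the cuticle genes and 0.05 for all features. It was 0.31 and 0.01 with cyclic loess in place of quantile normalization, and 0.74 and 0.21 with no normalization between arrays. Within bands of mean signal the median for cuticle genes and all features was 0.74 and 0.43 below a signal of 100, 0.28 and -0.09 from 100 to 512, and 0.82 and -0.14 above 512. Transcripts of other tissues differed as well, with 4 of 7 accessory gland genes lower and 1 higher in the yakuba complex (median -2.69), 4 of 7 testis genes higher and 1 lower (median 0.63), 2 of 4 muscle genes lower (median -1.42), and 1 gut and 1 storage gene lower. Their part in the cuticle differences was not tested.

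Of the Tweedle family 10 of 20 genes were higher in the yakuba complex and 0 lower. These were TwdlE, TwdlJ, TwdlK, TwdlM, TwdlO, TwdlP, TwdlQ, TwdlR, TwdlS and TwdlW, with differences between 1.05 (TwdlW) and 1.82 (TwdlS). TwdlR gave 8.84, 8.73 and 9.19 in D. teissieri, 8.21, 9.09 and 7.87 in D. yakuba and 8.90, 9.36 and 8.24 in D. santomea. In D. sechellia it gave 7.04, 7.88 and 7.04 and in D. mauritiana 5.93, 7.43 and 7.46, so that 1 array of D. yakuba lay just below the highest D. sechellia array and all others of the complex lay above it. The difference was 1.59 (SE 0.34, limma adjusted p = 0.000311). TwdlJ had the smallest p among species of its family (adjusted p = 9.57e-10) and did not overlap between the complexes, with a difference of 1.33 (SE 0.23, limma adjusted p = 1.45e-05). That value rests on 1 of its 2 probe sets. Their group means had a correlation of -0.05, and the mean of both differed by 0.21 (adjusted p = 0.712). The call of TwdlM likewise rests on the brighter of 2 probe sets, whose group means had a correlation of -0.39. With its dimmer probe set D. santomea had a mean of 8.15, D. yakuba 6.13 and D. teissieri 5.95. All of these lay below the D. mauritiana mean of 8.64, and only that of D. santomea lay above D. sechellia (7.08). The direction for TwdlM thus depends on the probe set read.

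Of 58 Cpr genes 14 were higher and 7 lower in the yakuba complex, and the other 4 genes that were higher were Ccp84Ae, Edg84A, Lcp65Aa and Lcp65Af. Ccp84Ae, of the cuticle gene cluster at 84A, gave 12.17, 11.77 and 12.37 in D. teissieri, 12.31, 12.87 and 12.34 in D. yakuba and 12.73, 13.23 and 12.46 in D. santomea. The values in D. sechellia were 10.86, 10.48 and 10.76 and those in D. mauritiana 10.56, 10.27 and 11.41. The complexes did not overlap, which held in the same direction for 3 cuticle genes and in the other for 1 (3.56% and 5.15% of all features). The difference was 1.75 (SE 0.20, limma adjusted p = 9.66e-09). Cpr47Ed was likewise separated, between 8.71 and 10.29 in the yakuba complex and between 8.09 and 8.40 in the other 2 species, with a difference of 1.15 (SE 0.23, limma adjusted p = 0.000159).

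Cpr47Ef, a neighbour of Cpr47Ed by section, was lower in the yakuba complex without overlap. It gave 6.91, 5.01 and 6.01 in D. teissieri, 4.94, 7.32 and 5.07 in D. yakuba and 6.00, 6.74 and 7.51 in D. santomea, against 8.14, 7.86 and 9.15 in D. sechellia and 10.16, 9.70 and 10.10 in D. mauritiana. The difference was -3.02 (SE 0.42, limma adjusted p = 4.74e-07). The other lower genes were Cpr72Ec (-2.45), Cpr100A (-2.06), Cpr92F (-1.96), Cpr47Ea (-1.71), Cpr49Ae (-1.32) and Cpr97Eb (-0.87). All of these but Cpr72Ec belong to the 8 genes in which D. mauritiana was above all other arrays. For Cpr47Ea, Cpr92F and Cpr97Eb the D. sechellia mean (5.12, 7.13 and 7.83) lay below the mean of each species of the yakuba complex. For Cpr49Ae and Cpr100A it lay between the means of these species (10.38 and 8.13).

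**Figure D3:**
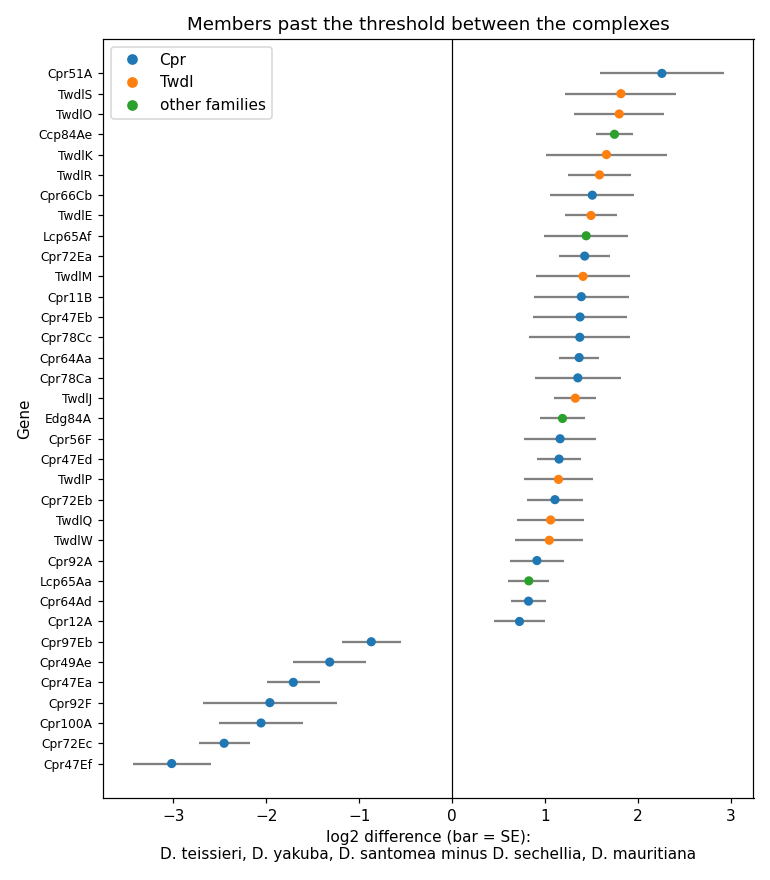
Log2 differences with SE of the 35 cuticle genes past the threshold between the complexes, for D. teissieri, D. yakuba and D. santomea minus D. sechellia and D. mauritiana, coloured by family. The 10 Tweedle genes all lie to the right of 0, and the 7 genes on the left, from Cpr47Ef (-3.02) to Cpr97Eb (-0.87), are Cpr genes.

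**Figure D4:**
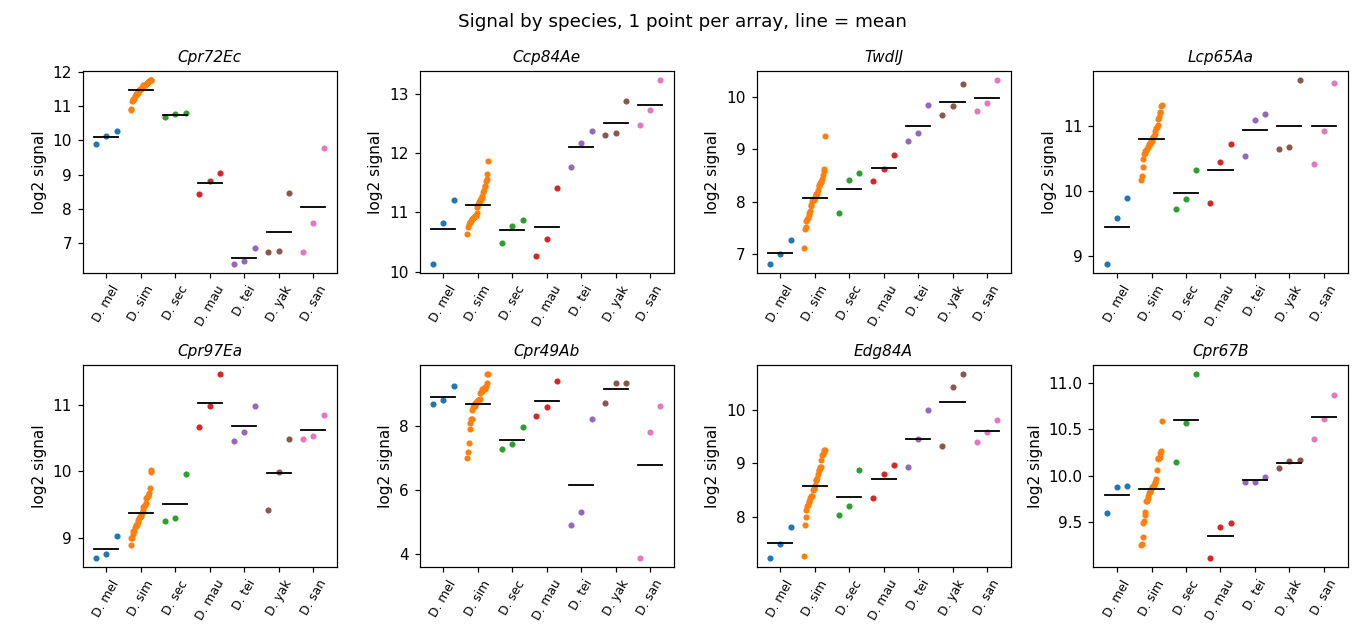
Log2 signals of 8 cuticle genes by species, 1 point per array sorted within a species, with a line at the mean. Ccp84Ae, TwdlJ and Edg84A step up in the yakuba complex, Cpr72Ec steps down, Cpr67B is lowest in D. mauritiana, and 1 D. santomea array of Cpr49Ab stands at 3.87.

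Inside the earlier collection D. simulans and D. melanogaster differed in 16 cuticle genes (17.6%, against 19.2% of all features), of which 14 were higher and 2 lower in D. simulans. By direction the shares of all features were 10.1% and 9.10%, and the median differences were 0.24 for the cuticle genes and 0.09 for all features. Without D. melanogaster array 2 there were 8 higher and 1 lower. Of other tissues, 6 of 7 accessory gland genes (median -3.06), 3 of 7 testis genes, 2 of 5 gut genes and 1 of 3 storage genes were lower in D. simulans, and 2 of 4 muscle genes were higher (median 0.78). Their part in the cuticle differences was not tested. In 3 genes the arrays did not overlap (2.27% of all features were higher in this way), and these were Cpr72Ec, Lcp65Aa and Cpr64Aa. Cpr72Ec, whose values stand above, differed by 1.37 (SE 0.32, limma adjusted p = 0.00192). Lcp65Aa, a larval cuticle gene by its name, gave 9.59, 9.89 and 8.88 in D. melanogaster and 10.16 to 11.31 with a median of 10.76 in D. simulans, a difference of 1.34 (SE 0.25, limma adjusted p = 0.000191). Cpr64Aa gave 9.40, 9.17 and 9.44 against 9.75 to 11.06 with a median of 10.47, a difference of 1.12 (SE 0.24, limma adjusted p = 0.0011).

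In section 64A, 3 of the 4 genes were higher in D. simulans, since Cpr64Ac (1.50) and Cpr64Ad (0.78) passed the threshold with Cpr64Aa. Of the Tweedle genes 6 of 20 were higher, with differences between 1.05 (TwdlJ) and 1.48 (TwdlR). Edg84A differed by 1.07, Cpr12A by 1.48 and Cpr5C by 2.05, and for Cpr5C the D. melanogaster arrays were spread from 3.88 to 6.47. The lower genes were Cpr67Fb, at 9.01, 9.15 and 8.81 in D. melanogaster and 4.58 to 8.96 with a median of 7.26 in D. simulans (difference -1.98, SE 0.49), and Cpr47Ef (-1.53, SE 0.48).

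Few cuticle genes passed the test within the yakuba complex, where the arrays of D. yakuba and D. santomea scattered the most of the 16 groups. Between D. santomea and D. yakuba 0 genes were higher and 1 lower in D. santomea (2.64% and 2.42% of all features), and 10 of the 91 had an unadjusted p of 0.05 or less (19.2% of all features). The gene was Cpr49Ab, with 7.79, 3.87 and 8.61 in D. santomea and 9.34, 8.70 and 9.34 in D. yakuba. The difference was -2.37 (SE 0.71, limma adjusted p = 0.0444), but it was -0.92 (adjusted p = 0.469) without the D. santomea array at 3.87. With each D. yakuba array left out in turn the adjusted p was between 0.0577 and 0.0885. Between D. teissieri and the mean of D. yakuba and D. santomea 0 genes passed limma's test in either direction, against 3.55% of features higher and 3.03% lower, and 16 genes had an unadjusted p of 0.05 or less (20.4% of all features). The other settings tried gave 0 to 3 genes, and leaving out 1 array gave up to 5, without D. santomea array 1.

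Within D. simulans the gene that varied among crosses was Cpr47Eb (limma F-test, adjusted p = 0.016). Its signals were 7.40, 8.79 and 8.41 in the cross 36x37 and 9.15, 7.75 and 8.76 in the cross 37x43, the 2 crosses that share line 37. In the other 8 crosses 22 of the 24 arrays lay between 3.81 and 6.31, and the exceptions were 1 array of 43x61 at 8.0 and 1 array of 99x105 at 7.03. The third array of 37x43 carried transcripts of females. Without both arrays with such transcripts the count among crosses stayed at 1 gene, and without the first array of 37x43 the adjusted p of Cpr47Eb was 0.057. In the other species the arrays ranged from 4.09 to 9.05. The other genes of section 47E did not pass the test among crosses.

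**Figure D5:**
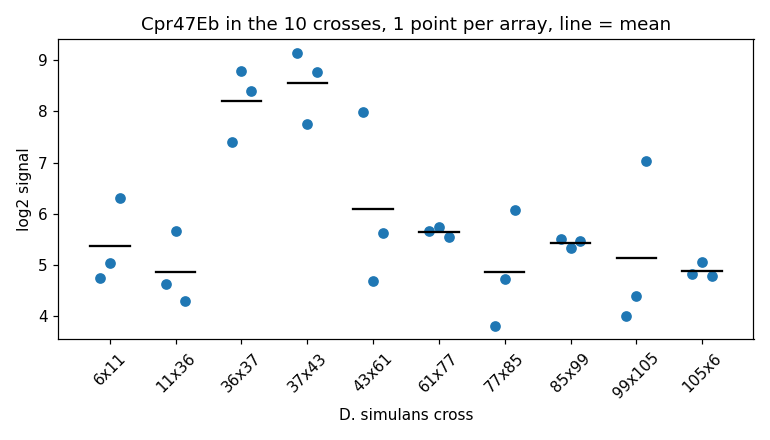
Log2 signals of Cpr47Eb in the 10 D. simulans crosses, 1 point per array with a line at the mean of 3. The arrays of 36x37 and 37x43 lie between 7.40 and 9.15, and the other crosses lie at 6.31 or below but for 1 array each of 43x61 and 99x105.

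Over the 16 group means the 4095 pairs of cuticle genes had a median correlation of 0.30, while all pairs of features had 0.00. Over the 10 cross means the median for cuticle genes was -0.00. The points share arrays and normalization, and the values are given as a description. The closest pairs were Acp65Aa with Cpr62Bc (0.94), Cpr62Bc with Cpr97Ea (0.93) and Cpr72Ea with TwdlJ (0.93). By section the median correlation was 0.69 among the 3 Cpr78C genes, 0.62 among the Cpr64A genes and 0.48 among the Cpr49A genes. It was -0.61 among the Cpr72E genes, where Cpr72Ec opposed its neighbours. In the other sections with 3 or more members it lay between 0.13 (65A) and 0.37 (62B).

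Cpr62Bc and Cpr97Ea varied among species with adjusted p-values of 6.74e-13 and 1.48e-09, the smallest after that of Cpr72Ec apart from Cpr47Ea, Acp65Aa and TwdlJ. Cpr62Bc gave 11.91, 11.52 and 12.05 in D. mauritiana, 7.43 to 8.43 with a median of 7.98 in D. simulans and 8.03, 8.21 and 9.83 in D. sechellia. Its values in the yakuba complex, from 8.83 to 10.90, lay between those of D. simulans and D. mauritiana. Cpr97Ea gave 10.98, 10.67 and 11.46 in D. mauritiana and 9.29, 9.25 and 9.96 in D. sechellia, and it was 8.69 to 9.02 in D. melanogaster, 8.88 to 10.02 in D. simulans and 9.42 to 10.98 in the yakuba complex, so that D. mauritiana and the yakuba complex overlapped.

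Another 7 probe sets name several genes, so that their signals cannot be assigned to 1 gene and they entered no count. The probe set shared by Ccp84Aa and Ccp84Ab had a mean of 8.84 in D. mauritiana and between 2.59 and 4.79 in the other species. That of Cpr65Av and Cpr65Aw was 8.18 in D. teissieri, 8.67 in D. yakuba and 8.45 in D. santomea, and between 6.20 and 7.52 in the other 4 species. Those of Cpr67Fa1 with Cpr67Fa2 and of Lcp65Ag1 to Lcp65Ag3 were also highest in D. yakuba (6.12 and 8.60). Other shared probe sets differed from this. That of Obp57d and Cpr57A was highest in D. sechellia (9.52), and that of Lcp65Ag1 and Lcp65Ag2 in D. melanogaster (5.72). That of TwdlL and TwdlB was 7.95 in D. yakuba, 8.88 in D. santomea and 8.86 in D. mauritiana. Of the 6 genes with 2 probe sets of their own, Cpr66D (0.72), TwdlN (0.56) and TwdlT (0.12) had positive correlations between the group means of both, and those of TwdlJ (-0.05), Cpr73D (-0.29) and TwdlM (-0.39) were negative. For these 3 genes and for TwdlT the signal depends on which probe set is read.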

How the data were processed

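The authors hybridised labelled RNA of whole males to Drosophila 1.0 arrays and deposited, per the labels, MAS5 intensity values on a linear scale with a trimmed mean of 500 on each array. Their methods also name loess smoothing and the masking of probes mismatched to D. yakuba, while the deposited table holds all 14010 probe sets. Values under 1 were set to 1 (31 values), log2 was taken and arrays were quantile normalized, since their medians ran from 7.56 to 8.25. After leaving out 44 controls and keeping the brightest probe set per gene, 12367 features remained, and differences were fitted with limma 3.58.1 in R 4.3.3 between group means over all 48 arrays, each D. simulans cross having equal weight. The F-test among crosses used the 30 D. simulans arrays. P-values were adjusted by Benjamini-Hochberg over all features with a threshold of 0.05. They rest on limma's moderated variance of each feature, pooled over the spread between the 3 samples of every group in the fit. The groups differed in spread, with median SDs over all features from 0.33 to 0.84. Having 3 arrays per group limits the precision.

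Genes were named as the members highest and lowest in each difference without overlap, those with the smallest p in each F-test or family, and Acp65Aa. Members, lists and comparisons were chosen with earlier results of these data known. Genes grouped by section use the section in the symbol. The fits were tested on simulated data. Alternatives covered normalization, a pseudocount of 16, dim features (highest group mean under 100), the mean of probe sets, the variance model, array weights, a replicate block, the arrays in the fit and each array left out in turn. Positions and sequences were not used here.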

Additional observations from a re-analysis of the deposited data

How the results depend on the processing

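Of 1272 values of named genes under the alternatives, 1254 kept their direction and side of the threshold, 18 lost the call and 0 changed direction. The count of cuticle genes that differed between D. santomea and D. yakuba was 0 in place of 1 with median centring, array weights, the replicate block, only the compared arrays in the fit, and the arrays with female transcripts left out (chosen after seeing the data). For D. teissieri against D. yakuba and D. santomea it was 2 with no quantile normalization, median centring or cyclic loess, 3 with a pseudocount of 16 or with trend and robust moderation, and 1 with dim features left out, array weights, the replicate block or the arrays with female transcripts left out. Between D. sechellia and D. mauritiana it was 31 with array weights and 10 without D. sechellia arrays 1 and 3; between D. sechellia and D. simulans it was 27 with array weights and 2 without the arrays with female transcripts. Among the 5 later species alone 25 genes varied in place of 68, and 18.6% in place of 66.0% of all features. The cause was not tested.

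With 1 array left out the counts ranged from 9 (without D. melanogaster array 2) to 17 for D. simulans minus D. melanogaster, 13 to 16 for D. sechellia minus D. mauritiana, 0 (without D. santomea array 2) to 3 (without D. yakuba array 1 or D. santomea array 3) for D. santomea minus D. yakuba, 0 to 5 for D. teissieri, 28 to 37 between the complexes, 14 to 24 for D. mauritiana minus D. simulans, 1 to 10 for D. sechellia minus D. simulans, 12 to 23 for D. mauritiana minus the other 4 later species, 60 to 71 among species and 0 (without array 1 of 37x43) to 2 (without array 2 of 36x37) among crosses.

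Replicate numbers did not pair the samples, since deviations of arrays with the same number had a median correlation of -0.00 over 360 pairs, and the replicate block moved no other count by over 1.5 times. Over all features, array weights gave 2303 in place of 650 calls for D. sechellia minus D. mauritiana, 147 in place of 625 for D. santomea minus D. yakuba, 3935 in place of 1391 for D. sechellia minus D. simulans, 3094 in place of 1381 for D. mauritiana minus D. simulans and 483 in place of 201 among crosses, where robust moderation gave 392. Fits of only the compared arrays gave 1 for D. santomea minus D. yakuba, 0 in place of 814 for D. teissieri and 913 in place of 2396 for D. mauritiana minus the other 4. Dim genes and the wide spread of D. yakuba and D. santomea limit what 3 arrays can show.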
